A study of Homo sapiens with 6 samples.

Results

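Myc binding was described at the genes for translation initiation and elongation factors, a set of 73 genes among the 19785 protein-coding genes with an annotated transcription start site (TSS) outside the mitochondrial genome. The set was taken by gene symbol: every EIF gene with a number after EIF, which includes the EIF2AK kinases and the EIF4EBP repressors of translation, every EEF1 and EEF2 gene, and the release factor genes ETF1, GSPT1 and GSPT2. Membership rests on the symbol alone. A gene was called bound in a library when the summit of a Myc peak lay within 1 kb of a TSS of a basic transcript of that gene, that is, a transcript that GENCODE marks as a representative model.

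The libraries came from MDA-MB-231, a human triple-negative breast cancer cell line, and from 231:TKO, a derivative in which CRISPR/Cas9 editing deleted TXNIP, the thioredoxin interacting protein, a negative regulator of glucose uptake. The comparison asks how Myc binding differs once TXNIP is lost. Myc was measured by chromatin immunoprecipitation sequencing (ChIP-seq) in 2 parental and 2 TKO libraries. Parental cells were unedited, the labels give no other treatment, and TKO clones were grown from single cells, so a TKO library holds the particular genome of a clone as well as the lost gene. The study describes the libraries of a cell line as biological replicates, and how their cultures were kept apart is not given in the sources used here. Peak lists carry no expression values, so the cell line and the knockout could not be checked by marker genes.

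The lists differed in size. The parental lists held 3720 (replicate 1) and 5719 (replicate 2) peaks at a recovered depth of 26.4 and 22.2 M reads. The TKO lists held 27213 and 25887 peaks at 19.9 and 13.0 M reads. The TKO lists were thus the longer ones from the shallower libraries.

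Translation factors bring the ribosome to an mRNA, find the start codon, move the ribosome along the coding sequence and release the finished protein. The eIF4F complex (cap-binding eIF4E, the helicase eIF4A and the scaffold eIF4G) recruits the mRNA, eIF2 carries the initiator tRNA, eIF2B recharges eIF2 with GTP, and eIF3 is the large scaffold that holds the small ribosomal subunit. Myc is a basic helix-loop-helix transcription factor that pairs with MAX and prefers the E-box CACGTG, and genes of ribosomes and translation are among its best known targets.

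The sequences that follow show what lay under the summits at genes that recur in the results. Each is 80 bases of GRCh37 (hg19), written on the plus strand, with any E-box in capitals. The first group is centred on an E-box that lay within 50 bp of a TKO summit. EIF4A1, the helicase of eIF4F, is shown at chr17:7475812-7475891, upstream of its TSS and outside annotated protein-coding transcripts. Transcripts of other types were not examined. EEF1AKMT4, a methyltransferase acting on eEF1A, is shown at chr3:183967326-183967405. It shares this promoter with the read-through gene EEF1AKMT4-ECE2 and with ALG3, which starts 124 bp away on the opposite strand. EEF1E1, a scaffold of the multi-tRNA synthetase complex, is shown at chr6:8102504-8102583, in an intron. EIF5A2, a paralog of EIF5A that aids elongation, is shown at chr3:170626546-170626625, upstream of the gene, and its window holds 2 E-boxes. EIF1B, a paralog of the start codon factor EIF1, is shown at chr3:40351107-40351186, upstream of the gene.

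EIF4A1: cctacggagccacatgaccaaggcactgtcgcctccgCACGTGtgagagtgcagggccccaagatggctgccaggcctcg
EEF1AKMT4: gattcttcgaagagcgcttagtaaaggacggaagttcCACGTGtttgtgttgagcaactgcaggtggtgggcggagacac
EEF1E1: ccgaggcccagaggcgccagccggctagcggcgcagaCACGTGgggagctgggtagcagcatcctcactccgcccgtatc
EIF5A2: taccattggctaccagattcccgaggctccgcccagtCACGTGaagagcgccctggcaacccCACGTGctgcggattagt
EIF1B: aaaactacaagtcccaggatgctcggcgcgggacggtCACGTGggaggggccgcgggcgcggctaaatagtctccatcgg

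The second group is centred on the summit of TKO replicate 1 at genes with no E-box within 250 bp of a summit in any library that bound them. These genes are EIF2S3, the gamma subunit of eIF2 (chrX:24072763-24072842), EIF3G, an eIF3 subunit (chr19:10230594-10230673), and EIF5, the factor that triggers GTP hydrolysis by eIF2 (chr14:103800165-103800244). All 3 windows lay upstream of the gene and outside annotated protein-coding transcripts. They are shown because binding without this motif was the more frequent case in the set.

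EIF2S3: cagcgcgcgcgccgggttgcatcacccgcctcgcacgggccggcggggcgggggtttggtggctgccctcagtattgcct
EIF3G: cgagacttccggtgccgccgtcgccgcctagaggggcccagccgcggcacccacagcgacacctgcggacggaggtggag
EIF5: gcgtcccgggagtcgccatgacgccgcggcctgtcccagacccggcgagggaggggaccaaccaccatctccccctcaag

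Most translation factor genes carried a Myc promoter peak in TKO cells, and a little over 50% of the set did so in parental cells. Parental replicate 1 bound 40 of the 73 genes (54.8%, exact 95% confidence interval 42.7 to 66.5) and parental replicate 2 bound 38 (52.1%, 40.0 to 63.9). TKO replicate 1 bound 66 (90.4%, 81.2 to 96.1) and TKO replicate 2 bound 65 (89.0%, 79.5 to 95.1). Over all protein-coding genes the shares bound were 12.2% and 12.9% in the parental libraries and 49.1% and 49.7% in the TKO libraries, so the set lay above the background in each library. The intervals cover counting over genes only.

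Both TKO libraries bound more of these genes than both parental libraries. The mean was 39.0 ± 1.41 genes (SD, n = 2) in parental cells and 65.5 ± 0.707 genes (SD, n = 2) in TKO cells, a difference of 26.5 genes and a ratio of 1.68. An exact two-sided permutation test returned p = 0.333, the floor for groups of this size, so this test could not pass 0.05 in this design. The difference moved with list length. With every list shortened to its 3720 strongest peaks by fold, parental replicates 1 and 2 bound 40 and 27 of the genes and TKO replicates 1 and 2 bound 41 and 46, a difference of 10.0, and parental replicate 1 lay within 1 gene of TKO replicate 1. In lists of that length 12.2%, 9.01%, 13.9% and 14.3% of all genes were bound, in the same order.

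The genes fell into 4 main patterns. All 4 libraries bound 32 genes (43.8%, against 9.32% of all protein-coding genes). Both TKO libraries and 1 parental library bound 12 genes (16.4%, against 6.16%). Binding in both TKO libraries with none in parental cells was found at 20 genes (27.4%, against 29.8%), a share near the background. No library bound 6 genes (8.22%, against 46.3%). The last 3 genes had other patterns: EIF2AK2 and EIF4EBP1 were bound in parental replicate 2 and TKO replicate 1, and EIF4EBP3 was bound in TKO replicate 2 alone. No gene was bound in both parental libraries and missing from both TKO libraries. These shares depended on the lists. In lists of equal length, 19 genes were bound in all 4 libraries (26.0%, against 5.35% of all genes) and 6 in both TKO and neither parental library (8.22%, against 2.43%). With peaks of a fold of at least 5, the counts were 19 (26.0%, against 5.15%) and 31 (42.5%, against 23.3%). The share bound in TKO cells alone was thus near the background in the full lists and above it in both of these alternatives.

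**Figure D1:**
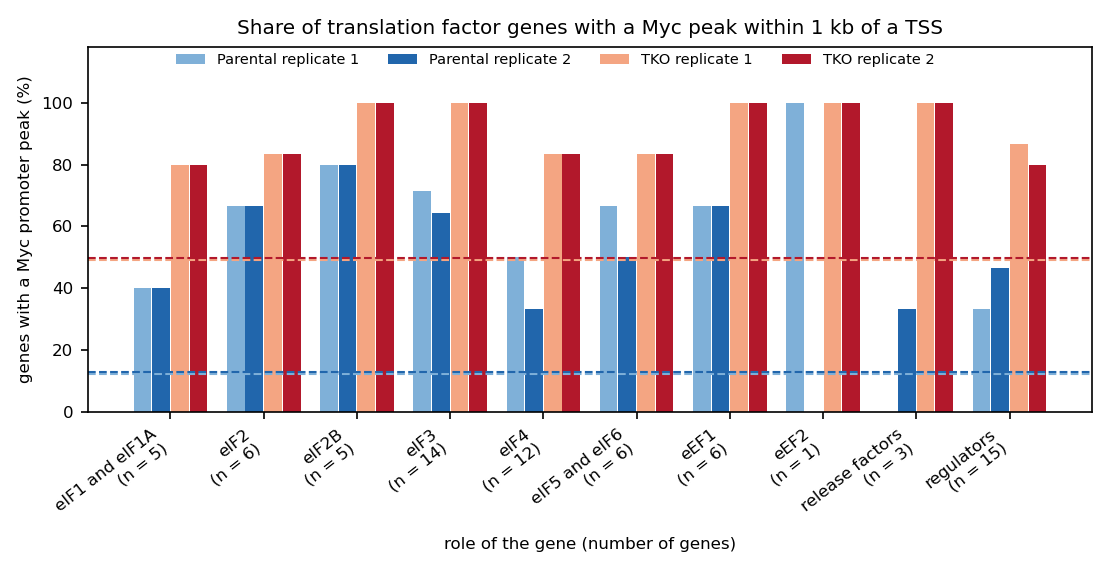
Percent of translation factor genes with a Myc promoter peak in each library, by the role of the gene product (number of genes under each role). Bars are the 4 libraries and dashed lines are the shares of all 19785 protein-coding genes in the same libraries. Both TKO libraries bound all 14 eIF3 genes, and the shares of every role in TKO cells stood above the dashed TKO lines near 49.1% and 49.7%.

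Among the initiation factors, 4 of the 5 subunit genes of the exchange factor eIF2B were bound in all 4 libraries, and the remaining one, EIF2B2, was bound in both TKO libraries. For eIF2 and its relatives, 4 of 6 genes were bound in each parental library and 5 in each TKO library. These 4 included all genes of the eIF2 trimer, EIF2S1, EIF2S2 and EIF2S3, and the alternative initiator EIF2A. Parental replicates 1 and 2 bound 10 and 9 of the 14 eIF3 subunit genes, and both TKO libraries bound all 14. At EIF3H the strongest parental summits lay at chr8:117779079 and chr8:117778752, at a second start region of the gene. UTP23 starts there on the opposite strand, 269 bp from a TSS of EIF3H, and was bound in all 4 libraries. These parental peaks cannot be given to either gene. Near its main TSS, at chr8:117768062, only the TKO libraries had a peak. EIF3F, EIF3K and EIF3L were the subunits bound only in TKO cells. Of the 12 eIF4 genes, the parental libraries bound 6 and 4 and the TKO libraries 10 each. EIF4A1, EIF4A2 and EIF4E were bound in all 4 libraries. The scaffold genes EIF4G1 and EIF4G3 and their relative EIF4G2 were bound in both TKO and neither parental library. The parental peaks of EIF4E were weak, with a fold of 4.70 and 3.71, under the alternative limit of 5. A split by the parts of eIF4F was not tested, and the set's share bound in TKO cells alone was near the background in the full lists. Of the 5 genes of the scanning factors eIF1 and eIF1A and their relatives, 2 were bound in each parental library and 4 in each TKO library. These 2 were EIF1 and the relative EIF1AD, which is grouped here by its symbol. Of the 6 genes of eIF5, eIF5A, eIF5B and eIF6, the parental libraries bound 4 and 3 and the TKO libraries 5 each.

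Elongation and termination followed the same order. The eEF1 group holds eEF1A, which delivers aminoacyl-tRNA, its exchange factor subunits and the synthetase scaffold EEF1E1, and 4 of its 6 genes were bound in each parental library and all 6 in each TKO library. The 2 that were added were EEF1A2, a paralog of EEF1A1, and EEF1D, an exchange factor subunit. EEF2, the translocation factor, was bound in parental replicate 1 and in both TKO libraries. Of the 3 release factor genes, ETF1 was bound in parental replicate 2, and ETF1, GSPT1 and GSPT2 were all bound in both TKO libraries. The 15 genes for kinases, repressors and methyltransferases that act on translation factors had 5 and 7 bound in the parental libraries and 13 and 12 in the TKO libraries. Without these 15, the 58 factor genes had 35, 31, 53 and 53 bound.

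**Figure D2:**
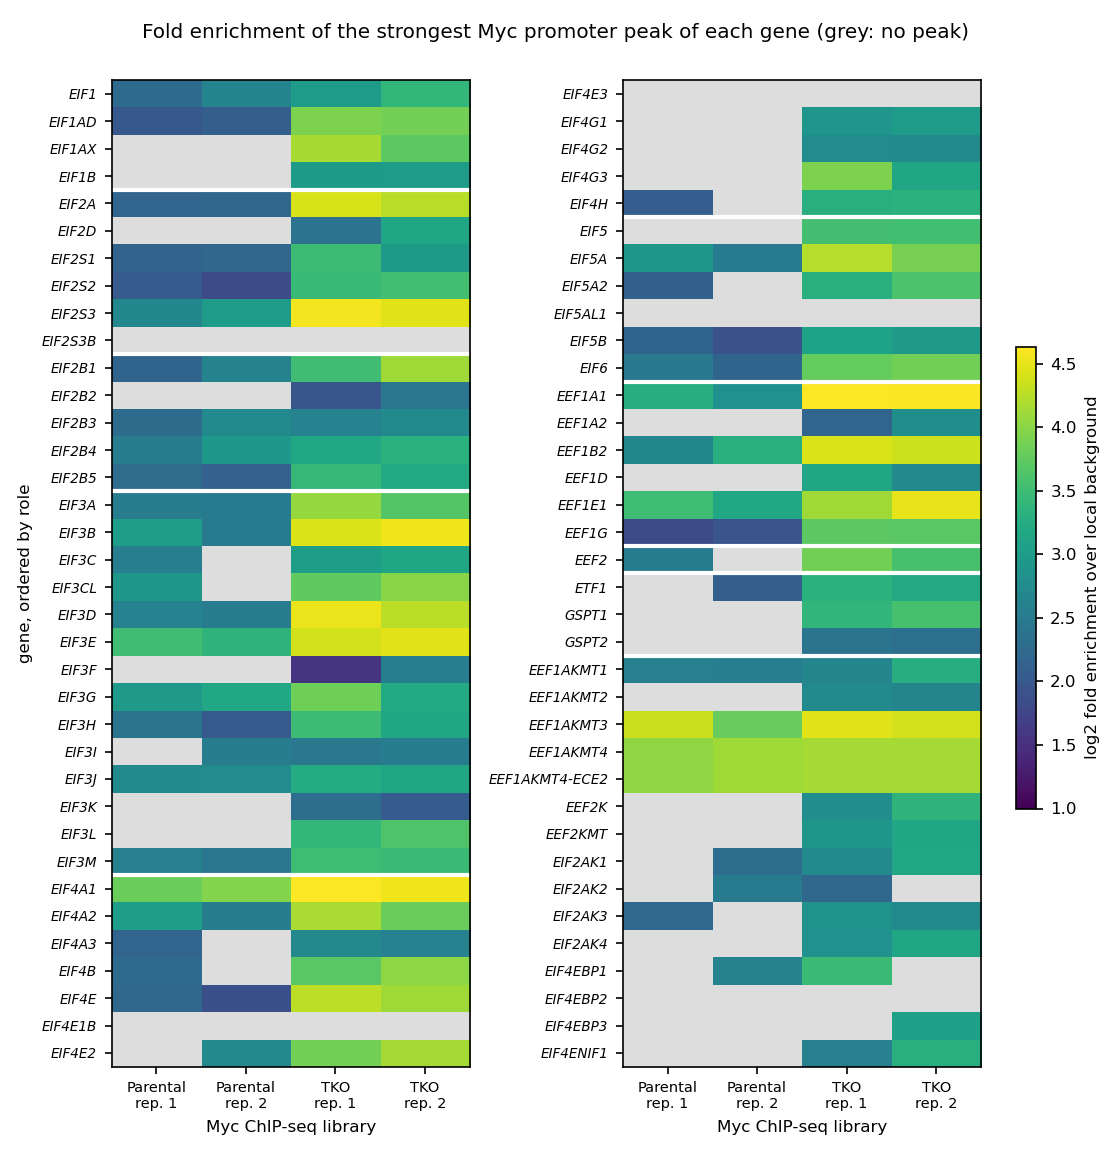
Fold enrichment of the strongest Myc promoter peak of each gene, as log2 of the authors' fold over local background, in the 4 libraries. Genes are ordered by role, white lines part the roles, grey marks no promoter peak, and EIF1AY on chromosome Y is left out. Colours run from fold values near 2.94 to 24.8, and most grey cells stand in the parental columns.

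The strongest binding common to all 4 libraries was described through the 10 genes of highest mean rank. The rank is the percentile of a peak's fold, the share of peaks in the same list with a lower fold. EEF1AKMT3, a lysine methyltransferase of eEF1A, led with a fold of 20.2 and 13.8 in the parental libraries and 22 and 20.9 in the TKO libraries. METTL1 starts 81 bp away on the opposite strand and was also bound in all 4 libraries. The peak in this promoter therefore cannot be given to either gene. EEF1AKMT4 had a fold of 16.3, 17.3, 17.7 and 17.7 in parental replicates 1 and 2 and TKO replicates 1 and 2. EEF1AKMT4-ECE2 has its start 23 bp away and was assigned the same peak, so it adds no measurement. On the opposite strand ALG3 starts 124 bp from EEF1AKMT4 and was bound in all 4 libraries, so the peak could belong to either promoter. These methyltransferase genes were above the 98th percentile in each list. The lists differ in length, so the cell lines are not compared by this rank.

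EIF4A1 had a parental fold of 14.1 and 15.6 and a TKO fold of 24.7 and 23.6. It carried more than 1 promoter peak in 3 of the 4 libraries, and the strongest summit lay at a different place in parental than in TKO cells. In parental cells the strongest summits lay 872 and 853 bp downstream of the TSS, in an intron. In TKO cells they lay upstream, at -262 and -272 bp from the TSS, beside the E-box shown above. In TKO replicate 1 this was a near tie, since a further peak with its summit at 822 bp had a fold of 24.5, and in TKO replicate 2 a single peak spanned both places. Parental libraries also had a peak at that E-box, with summits at -285 and -283 bp, a fold of 8.92 and 10.3 and 4.39 and 5.09 summit RPM, the recovered reads over the summit scaled to a library of 1000000 reads. The TKO values at the same place were 8.17 and 9.36 RPM. A comparison of the strongest peaks alone, with 2.38 and 2.79 RPM in parental cells, therefore sets different positions side by side at this gene.

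EIF3E, an eIF3 subunit, had a fold of 11.4 and 10.3 in parental and 21.0 and 22.2 in TKO libraries. EEF1E1 had 11.4 and 8.97 against 17.3 and 22.8. EEF1B2, the exchange factor of eEF1A, had 6.35 and 9.68 against 21.5 and 20.5. In each of these genes both TKO values were higher than both parental values. EEF1A1, which delivers aminoacyl-tRNA to the ribosome, had a fold of 9.58 and 7.16 in parental and 24.8 and 24.4 in TKO libraries. Its parental replicate 1 summit belonged to a second start region of the gene, and in the other 3 libraries the strongest summit lay at the main TSS. At the main TSS, parental replicate 1 had a further peak with a fold of 9.04 and 2.54 summit RPM. EIF2S3 had 6.49 and 7.98 against 23.7 and 22.2. EIF3G had 7.74 and 8.98 against 14.3 and 9.31, so TKO replicate 2 stood only just above parental replicate 2 there.

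Summit reads were compared at the 32 genes bound in all 4 libraries, because depth differed between libraries and a value exists in each only for these genes. The unit is summit RPM at the strongest promoter peak. The median over the 32 genes was 1.59 and 1.60 in the parental libraries and 3.84 and 4.83 in the TKO libraries. The ratio of the means of these medians was 2.72, and the median ratio was 2.57 to 3.02 over the 4 ways to pair the libraries of both cell lines. The exact permutation test of the library medians had p = 0.333, again the floor. All 32 genes had more summit RPM in both TKO than in both parental libraries, as did 99.0% of the 1843 protein-coding genes bound in all 4 libraries. The other 1811 genes of that class had a ratio of 2.60. A higher summit signal in TKO cells was thus a feature of nearly all such genes and the set was close to them.

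The reads of the libraries had been extended to different lengths when peaks were called, from 140 and 151 bp in the parental lists to 182 and 201 bp in the TKO lists, and a longer extension stacks more reads on a summit. Per bp of extension the ratio was 2.06 in the set and 1.97 in the other genes, and the TKO values stayed above the parental values for all 32 genes and for 96.9% of all genes of the class. By fold the groups were apart at 31 of the 32 genes, against 92.0% of the class. The exception was EIF2B3, an eIF2B subunit, with a fold of 4.86 and 6.67 in parental and 6.09 and 6.68 in TKO libraries. By recovered summit reads divided by the recovered local background, the groups were apart at 28 of the 32 genes (87.5%). The share among the other 1811 genes was 88.8%, so by this measure the set was no more uniform than they were. At the 24 genes whose 4 strongest summits lay within 250 bp of each other, a choice made after seeing the data, the ratio was 2.60.

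**Figure D3:**
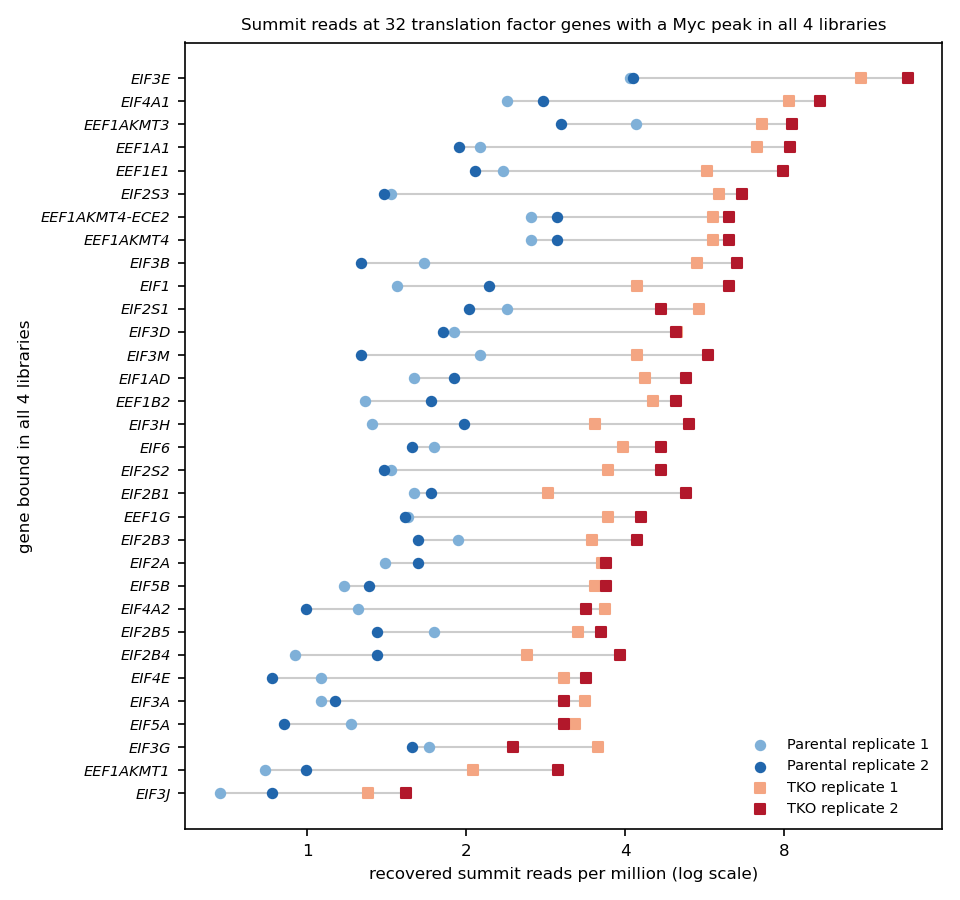
Recovered summit reads per 1000000 reads (RPM, log scale) at the strongest promoter peak of the 32 translation factor genes bound in all 4 libraries, with a circle for each parental and a square for each TKO library, joined by a grey line per gene. Both squares lie to the right of both circles for all 32 genes. At EIF4A1, EIF3B, EIF3H, EIF3J, EIF5B, EEF1AKMT1, EEF1A1 and EIF2S3 the 4 strongest summits span more than 250 bp.

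The genes differed in the size of that step. EIF2S3 had 1.44 and 1.40 summit RPM in parental libraries and 6.02 and 6.67 in TKO libraries, a ratio of 4.48, the highest of the 32. EIF3B, a core subunit of eIF3, had 1.67 and 1.26 against 5.46 and 6.52, a ratio of 4.09. Its parental summits lay at -790 and -789 bp from the TSS and its TKO summits at -157 and -720 bp. Parental replicates 1 and 2 also had peaks at -113 and -134 bp, with 1.82 and 1.62 summit RPM. The ratio at EIF3B therefore partly sets different positions side by side. EEF1A1 had 2.12 and 1.94 against 7.12 and 8.21, a ratio of 3.78. The lowest ratio was that of EIF3G, 1.83, with 1.70 and 1.58 against 3.56 and 2.45. EIF3J, a loosely bound eIF3 subunit, followed with 0.681 and 0.856 against 1.30 and 1.53, a ratio of 1.85, and had the lowest signal of the 32 genes in every library, level with EIF4E in parental replicate 2. EIF3E had the highest TKO signal, with 4.09 and 4.15 against 11.2 and 13.7 RPM, so subunits of the same complex lay at both ends of the range.

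Rank was read within each list, and because the lists differ in length no difference between the cell lines is drawn from it. The median percentile of the promoter peaks of the set, counting a shared peak once, was 57.0 and 62.3 in the parental lists and 91.8 and 90.3 in the TKO lists. For promoter peaks of the other genes it was 56.9 and 56.3 in the parental lists and 69.7 and 69.5 in the TKO lists. The gap to other genes in TKO cells depended on the pattern and was small at genes bound in all 4 libraries. At genes bound in all 4 libraries, the median percentile was 97.0 and 97.1 in the TKO lists for the set and 95 and 94.6 for other genes. At genes bound in both TKO and neither parental library it was 73.5 and 82.8, against 62.1 and 62.7. The top 10% of the list held 6 of 39 and 7 of 37 such peaks in parental cells (15.4% and 18.9%, against 12.7% and 14.5% for other genes). It held 35 of 65 and 32 of 64 in TKO cells (53.8% and 50.0%, against 20.8% and 19.9%). Among genes bound in all 4 libraries the TKO shares were 80.6% and 71.0%, against 69.9% and 67.4%.

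Of the 32 genes bound throughout, 24 had a higher percentile in both TKO than in both parental lists, against 83.3% of all genes in that class. The 8 exceptions were EEF1AKMT1, EEF1AKMT3, EEF1AKMT4, EEF1AKMT4-ECE2, EIF2B3, EIF2B4, EIF3G and EIF4A1. In 5 genes both parental percentiles were under 50 and both TKO percentiles were 90 or more. They include EIF4E, the cap-binding protein, at 30.1 and 11.9 in parental and 98.8 and 98.4 in TKO lists, and EEF1G, a subunit of the eEF1 exchange factor, at 6.67 and 15.3 against 95.5 and 95.6. EIF2A was at 27.8 and 34.3 against 99.1 and 99.0. EIF1AD, a relative of eIF1A, was at 14.7 and 24.8 against 97.0 and 97.2, and EIF2S2, the beta subunit of eIF2, at 16.8 and 8.50 against 92.2 and 93.6. These genes were named after their values were seen, and the percentiles that chose them come from lists of different length. The share of other genes bound in all 4 libraries with such values was not counted. The median percentile of those other genes was 62.8 and 62.9 in the parental lists and 94.6 or more in both TKO lists. A higher percentile in the TKO lists was thus not particular to the named genes.

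**Figure D4:**
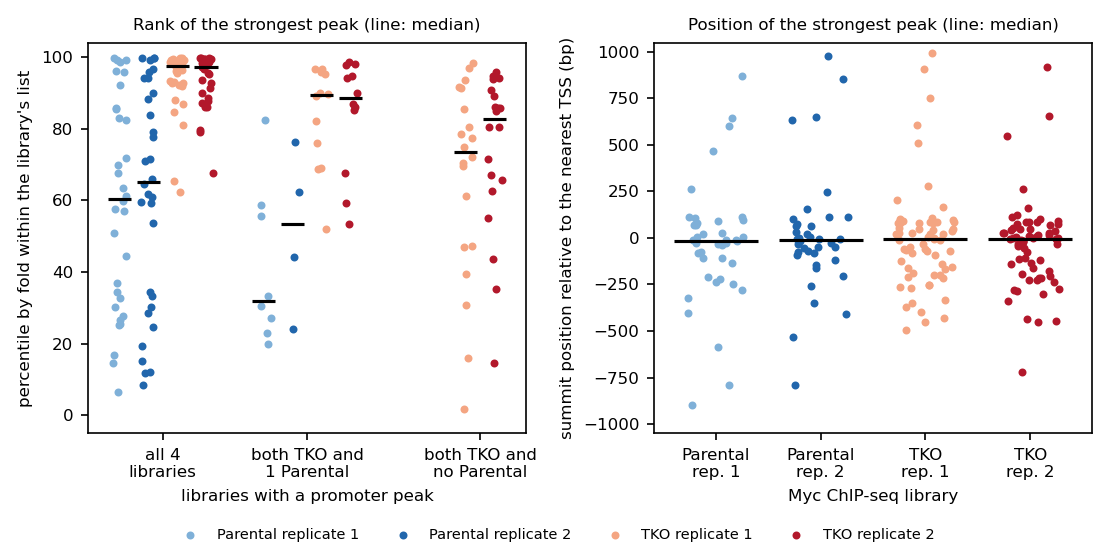
Left, percentile by fold of the strongest promoter peak of each gene within its list, by the libraries that bound the gene. Right, position of the summit relative to the nearest TSS in bp, positive downstream. Points are genes, colours are libraries and lines are medians. The median percentiles of genes bound in all 4 libraries are 60.4 and 65.2 in parental and 97.4 and 97.1 in TKO lists, and the median positions lie between -15.5 and -3 bp.

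The 12 genes bound in 1 parental and both TKO libraries were EEF2, EIF2AK1, EIF2AK3, EIF3C, EIF3CL, EIF3I, EIF4A3, EIF4B, EIF4E2, EIF4H, EIF5A2 and ETF1. In 8 of them the parental peak came from replicate 1 and in 4 from replicate 2. The parental peak had 0.719 to 1.31 summit RPM (median 1.02), and its percentile ranged from 19.9 to 82.4 (median 38.7). Both TKO libraries exceeded the parental peak at 11 of the 12 genes, and the median ratio over all 12 was 2.61. The exception was EIF2AK1, the heme-regulated eIF2 kinase, with 1.31 in parental replicate 2 and 1.2 and 1.99 in TKO. The share of other genes of this pattern with such an order was not counted. Their promoter peaks had a median of 0.984 and 1.08 RPM in parental replicates 1 and 2 and 2.01 and 2.38 in TKO replicates 1 and 2. In the set these medians were 1.00 and 1.17 against 2.21 and 2.61, so a higher TKO signal was not particular to it. EIF4E2, a cap-binding relative of eIF4E, had the highest ratio, 3.86, with 0.766 in parental replicate 2 against 2.46 and 3.45. EEF2 had 0.795 in parental replicate 1 against 2.11 and 2.15. EIF3C and EIF3CL are near-identical copies, and how reads were divided between them is uncertain. At EIF2AK3 the parental summit lay at chr2:88991398, at a second start region of the gene, far from its main TSS at chr2:88926982. RPIA starts at that second region on the opposite strand, 197 bp from a TSS of EIF2AK3, and was bound in 3 libraries. A peak at that place cannot be given to either gene. Near that main TSS only the TKO libraries had peaks.

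The 20 genes bound in both TKO and neither parental library reached ranks across the whole TKO lists. Their percentiles ran from 1.85 to 98.3 in TKO replicate 1 (median 73.5) and from 14.7 to 95.8 in TKO replicate 2 (median 82.8). EIF1AX, the scanning factor eIF1A, led with a fold of 17.8 and 13.2 and 3.01 and 3.07 summit RPM in TKO replicates 1 and 2. EIF5 had a fold of 11.7 and 11.6, EIF3L 10.6 and 12.4, and GSPT1, the GTPase that works with the release factor eRF1, 10.5 and 11.9. At GSPT1 the strongest summits lay 908 and 40 bp downstream of a TSS. This was a near tie in TKO replicate 1, which had a further peak with a fold of 10.2 and 1.70 summit RPM. Its summit lay at chr16:12009872, close to that of TKO replicate 2 at chr16:12009899. EIF4G3 had a fold of 15.0 and 8.92, which is the widest split between the TKO libraries among these named genes.

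EEF2KMT, a methyltransferase of eEF2, had a fold of 7.6 and 8.88. EEF2K, the kinase that inhibits eEF2, had 6.86 and 10.3. EIF1B had 7.87 and 8.01. EIF2AK4, the amino acid sensing kinase GCN2, had 7.16 and 8.76, and EIF4G1, the main scaffold of eIF4F, had 7.46 and 8.02. These values were moderate for TKO promoter peaks of the set, whose median fold was 10.7 and 10.1. Other genes of this pattern were weaker, among them GSPT2 with 5.26 and 5.03 and EIF3F with 2.94 and 5.90.

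Signal in TKO cells was set beside that of called parental peaks. A value of 0.766 RPM is the higher of the 5th percentiles over all peaks in the 2 parental lists. In both TKO libraries 19 of the 20 genes lay above it (95%, against 93.3% of 5867 other genes with this pattern). Above the higher parental median, 1.25 RPM, were 12 of the 20 (60%, against 54.2%). Per bp of extension these counts were 18 (90%, against 80.4%) and 6 (30%, against 24.3%). The genes were chosen for having a called TKO peak, so most could be above the lower of these values by that choice, and the counts are a description.

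The genes without a promoter peak in any library were EIF1AY, EIF2S3B, EIF4E1B, EIF4E3, EIF4EBP2 and EIF5AL1. EIF1AY lies on chromosome Y and is not described further. EIF2S3B and EIF5AL1 are retrocopies of EIF2S3 and EIF5A. EIF4E1B and EIF4E3 are cap-binding relatives of EIF4E, and EIF4EBP2 encodes a repressor that binds eIF4E. Absence of a call was nearly always absence of any call nearby. Leaving out EIF1AY, a promoter peak was missing in 79 combinations of gene and library, and in 78 of these there was no peak summit within 5 kb of a TSS either. The remaining one was EIF4EBP1, a target of mTOR that represses eIF4E, in TKO replicate 2, where a summit lay 1001 bp from the TSS, just outside the window. Just inside were EIF4EBP1 in parental replicate 2, at 977 bp, and EEF1A2 in the TKO libraries, at 996 and 920 bp.

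Binding was centred on the start site. In TKO replicates 1 and 2, 35 of 65 and 34 of 64 promoter peaks of the set had a summit within 100 bp of a TSS (53.8% and 53.1%), against 37.1% and 38.3% of promoter peaks of other genes. In the parental libraries the shares were 48.7% and 54.1%, against 47.1% and 47.6%. Peaks of the set were also wide in TKO cells, with a median width of 742 and 766 bp against 452 and 462 bp for other genes, and 260 and 300 bp against 240 and 236 bp in parental cells. At genes bound in all 4 libraries the TKO widths were 985 and 946 bp against 805 and 762 bp. At genes bound in both TKO and neither parental library they were 393 and 557 bp against 393 and 412 bp. The extension length also differed between the cell lines, and its part in the width was not tested. The bases within 100 bp of the summit had a median GC content of 65.2%, 63.7%, 64.2% and 64.2%, against 64.2%, 63.2%, 64.2% and 64.7% for promoter peaks of other genes.

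The E-box CACGTG, which reads the same on both strands, was the minority case. Within 50 bp of the summit it was present at 6 of 39 and 5 of 37 promoter peaks of the set in parental libraries (15.4% and 13.5%) and at 9 of 65 and 7 of 64 in TKO libraries (13.8% and 10.9%). Promoter peaks of other genes had it at 22.4% and 18.9% in parental and 9.30% and 8.18% in TKO libraries. Windows of the same length 1 kb to either side of the set's summits had it at 0% to 1.28% of places, and those of other genes at 1.30% to 1.54%. At genes bound in all 4 libraries, the share in the set was 12.9%, 16.1%, 12.9% and 12.9%, below the 24.7%, 22.6%, 22% and 21.1% of other genes of that class. These counts are small and carry no test.

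In TKO cells 13 genes had an E-box near at least 1 of the strongest summits. In 5 of them, EEF1AKMT4, EEF1AKMT4-ECE2, EIF3J, EIF4A1 and EIF5A2, this held in both TKO libraries, and in the other 8, EEF1E1, EIF1B, EIF2AK3, EIF3B, EIF4A3, EIF4B, EIF4EBP3 and EIF4G1, in 1. The place of the summit decides such a count. At EEF1AKMT3 the E-box lay 24 and 12 bp from the parental summits and 56 and 54 bp from the TKO summits, just outside the 50 bp limit. At EEF1E1 the nearest E-box lay 28, 9, 35 and 154 bp from the summits of parental replicates 1 and 2 and TKO replicates 1 and 2. The ETS motif CCGGAAGT, searched on both strands in the same windows, was present at 1, 4, 4 and 4 of the peaks of the set in the 4 libraries (2.56%, 10.8%, 6.15% and 6.25%), against 4.60%, 4.58%, 2.78% and 3.02% for other genes.

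Some of these promoters belong to a gene pair. A TSS of another protein-coding gene lay within 1 kb on the opposite strand at 20 of the 73 genes (27.4%, against 13.7% of all protein-coding genes). Examples are EEF1B2 with NDUFS1, a subunit of respiratory complex I, at 76 bp, EIF2B1 with GTF2H3 at 27 bp, EIF1AD with BANF1 at 52 bp and EIF2B4 with SNX17 at 158 bp. In each of these 4 pairs both genes were bound in all 4 libraries, and a peak in such a promoter cannot be given to either gene. The same held for EEF1AKMT3 with METTL1 at 81 bp, EEF1AKMT4 with ALG3 at 124 bp and EIF3E with EMC2 at 128 bp. Parental replicates 1 and 2 bound 13 and 14 of the 20 paired genes (65.0% and 70.0%) and 27 and 24 of the 53 others (50.9% and 45.3%). TKO replicates 1 and 2 bound 18 and 18 of the paired genes and 48 and 47 of the others. The 53 unpaired genes were thus also above the 9.75%, 10.3%, 43.8% and 44.4% of all genes without such a partner.

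Other genes of translation and its control, taken from a list of 52 that includes mitochondrial factors, poly(A)-binding proteins, mTOR pathway members and the diphthamide enzymes that modify eEF2, gave 22, 21, 48 and 48 bound genes in parental replicates 1 and 2 and TKO replicates 1 and 2. The shares were 42.3%, 40.4%, 92.3% and 92.3%. All 4 libraries bound 19 of them, both TKO and neither parental library bound 21, and MTOR was the gene bound in none. LARP1, an RNA-binding protein that controls mRNAs of the translation machinery, had a fold of 29.5 and 31.5 in the parental and 53.2 and 53.8 in the TKO libraries, higher than any gene of the set in each of them. PABPC1, the poly(A)-binding protein, had 8.06 and 8.43 against 25.5 and 19.9, near the values of EEF1A1.

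A larger share of both other gene families of the same machinery was bound in parental cells. The 90 cytosolic ribosomal protein genes had 83 and 77 bound in parental cells (92.2% and 85.6%), against 86 for each TKO library (95.6%). Of 20 cytosolic aminoacyl-tRNA synthetase genes, 15 and 13 were bound in parental cells (75.0% and 65.0%) and all 20 in each TKO library. At genes bound in all 4 libraries the ratio of TKO to parental summit RPM was 2.89 for ribosomal proteins, 2.77 for synthetases and 2.48 for the 52 pathway genes, beside 2.72 for the factors. These are values side by side and were not tested against each other.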

How the data were processed

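The authors aligned single-end Myc ChIP-seq reads to hg19 with NovoAlign (3.08.02 per the submitters' processing notes) and called peaks per library with MACS2 (2.1.1.20160309) against input. The 2 input samples had no file used here. Each deposited list gives peak position, summit, the authors' fold (a ratio over local background), −log10 p-value, −log10 q-value and a deposited score derived from the q-value. The lowest −log10 q-value was 2.03 to 2.07. How duplicate reads were treated is not given in the sources used here.

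Summit reads and local background were recovered from the deposited fold and −log10 p-value, which follow from them in MACS2. For 100% of peaks a whole number of reads gave the deposited −log10 p-value to within 0.002. Depth assumed a genome of 2700000000 bases and an extension equal to the narrowest peak of a list. Assignment used GENCODE v44 lifted to GRCh37, with 55751 start sites of basic transcripts of protein-coding genes, and each gene took its peak of highest fold. Shares carry exact Clopper-Pearson intervals at 95%. Parental and TKO libraries were compared by exact permutation tests, two-sided. Genes are not replicates, so other counts are descriptions. Sequences were read from GRCh37.

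The gene set, the lists and the rules for named genes were chosen with earlier results of these data known. Values were given for the 10 genes of highest mean percentile among those bound in all 4 libraries and the 10 of highest TKO percentile among those bound only in TKO, and names for the genes bound in 1 parental library and in none. Alternatives were windows of 500 bp and 3 kb, start sites of every protein-coding transcript, peak overlap, −log10 q-value or fold of at least 5, lists of equal length, chromosomes 1 to 22 and X, the set without regulators, each library left out, a replicate block, other scales and a motif window of 100 bp. The steps were tested on simulated data. Tools were samtools 1.23.1, pysam 0.24.0, pandas 2.3.3, scipy 1.17.1, numpy 2.4.6 and matplotlib 3.10.9 under Python 3.11.15.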

Additional observations from a re-analysis of the deposited data

How the results depend on the processing

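The direction of the difference in bound genes and of the summit read ratio was the same in each alternative run. List length and strength moved the counts most. With equal numbers of peaks the difference was 10.0 genes, with 19 genes bound in all 4 libraries (26.0%, against 5.35% of all genes) and 6 bound only in TKO (8.22%, against 2.43%). At a fold of at least 5, 19 genes were bound in all 4 libraries (26.0%, against 5.15%) and 31 only in TKO (42.5%, against 23.3%). The median TKO percentile, 91.1 as the mean of both lists, was 92.2 when ranked by −log10 p-value. The E-box share, 12.4% as the mean of both TKO lists, was 20.9% with a motif window of 100 bp. Leaving out each library in turn gave differences of 25.5 to 27.5 genes, 32 to 40 genes bound in all remaining libraries, 20 to 28 bound only in TKO, ratios of 2.41 to 3.03, median percentiles of 90.3 to 91.8 and E-box shares of 10.9% to 13.8%. The replicate block gave a difference of 26.5 genes and a ratio of 2.70. Same-numbered libraries correlated by only 0.0722 in their deviations from the group means over 1843 genes, so the numbers were not treated as pairs. With 2 libraries per cell line, different numbers give the same value with its sign reversed, which adds no information. With 2 libraries per cell line, the exact permutation test could not pass 0.05.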
